A study of Mus musculus with 8 samples.

Results

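This account covers the hyaluronan genes Has1, Has2, Has3, Hyal1, Hyal2, Cd44, Vcan and Tnfaip6 in the palatal shelves of mouse embryos. Members were all probe sets, the groups of short probes that together read a transcript on the array, whose annotation names exactly 1 of these 8 symbols. There were 18 such probe sets among the 45037 of the array, and they covered 7 of the 8 genes. Hyal1 had none of its own, because its 2 probe sets are annotated with both Hyal1 and Naa80, a gene that overlaps it in the RefSeq annotation, and it was not analysed here. Palatal shelves, which grow from the upper jaw on either side of the tongue and later fuse to form the secondary palate, were dissected at embryonic day 14.5 from a C57BL/6 and SV129 cross. The 4 R26Pax3/Pax3 samples (replicates 1, 3, 4 and 7) carried an allele that places Pax3, a transcription factor of early neural crest, in the Rosa26 locus, and the 4 wild type samples (replicates 2, 6, 8 and 11) came from littermates. The labels name no driver for the allele, do not say which cells expressed it and do not say whether a sample was 1 embryo or a pool, so the p-values reflect only how far these samples scattered.

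Hyaluronan is a very long, unsulfated sugar chain that cells spin out through their membrane and that binds large amounts of water. In the palatal shelf it fills the matrix of the mesenchyme, and the swelling of this matrix is thought to help the shelf turn from beside the tongue to above it. Its action depends on synthesis by the Has enzymes, on breakdown by hyaluronidases such as Hyal1 and Hyal2, and on attachment to cells and matrix through binding proteins such as Cd44, Vcan and Tnfaip6.

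Across the 8 arrays the median signal, in the linear intensity units of the MAS5 method, lay between 43.5 and 44.8, and correlations between arrays ranged between 0.974 and 0.982. The dissected tissue carried the markers of palate mesenchyme, since all 9 listed genes were above the array median on all 8 arrays. The 2 brighter probe sets of Pax3 fitted the labels, with 532.4, 558.9, 664.3 and 721.5 on the brightest in R26Pax3/Pax3 against 176.4, 141.9, 167.4 and 161.6 in wild type. The dimmest one overlapped between genotypes, at 66.0 to 112.7 against 82.1 to 111.3. Gt(ROSA)26Sor, the transcript of the locus that carries the allele, read 12.8 to 30.3 in R26Pax3/Pax3 and 271.1 to 389.7 in wild type. Of 27021 probe sets tested, 4 passed an adjusted p of 0.05 (limma with Benjamini-Hochberg adjustment), which is 0.0148% of them, and 9 did so without R26Pax3/Pax3 replicate 3.

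No hyaluronan gene passed the test between R26Pax3/Pax3 and wild type shelves. Of the 18 probe sets, 14 passed the filter on low signals, and 0 of these 14 were called by limma, against the background of 0.0148%. At an unadjusted p under 0.05 there were also 0 of 14, where 4.86% of all probe sets passed, and the lowest unadjusted p was 0.0832. In none of the 14 did the 4 R26Pax3/Pax3 arrays separate from the 4 wild type arrays, against 2.73% of all probe sets. The signs were mixed, with 6 higher and 8 lower in R26Pax3/Pax3. The median log2 fold change was -0.02, and that of all tested probe sets was 0.00. All fold changes here are R26Pax3/Pax3 minus wild type on the scale log2(signal + 16), which understates the change of dim probe sets. RNA was taken from whole shelves, so fewer cells of a type and less RNA per cell cannot be told apart.

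**Figure D1:**
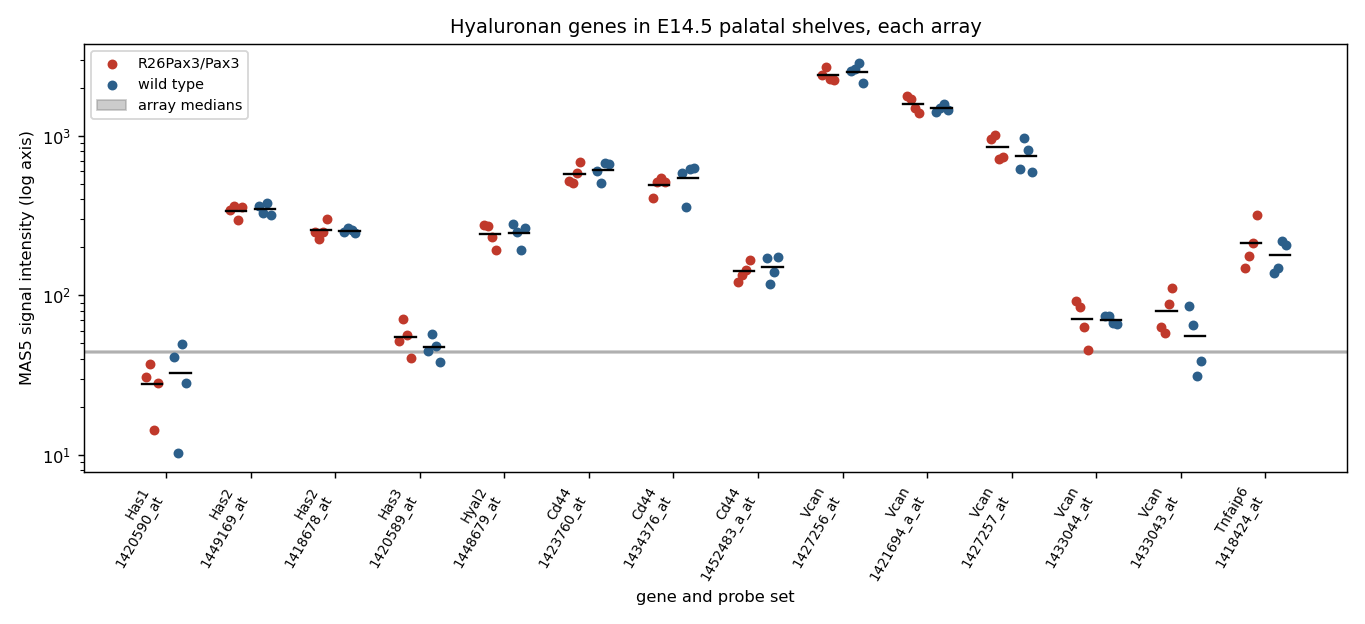
MAS5 signal intensity (log axis) of the 14 tested hyaluronan probe sets on each array, R26Pax3/Pax3 in red on the left and wild type in blue on the right of each pair. Black bars are means of 4 arrays and the grey line marks the array medians of 43.5 to 44.8. The groups overlap on all 14 probe sets, and Has1 lies mostly below the grey line.

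The synthases come first in the pathway. Has2, the synthase required in mouse neural crest derived tissue for the palate to form, was the most steadily measured of them. Its probe set 1449169_at read 344.2, 361.4, 296.7 and 359.7 in R26Pax3/Pax3 against 361.2, 327.9, 378.9 and 321.3 in wild type. The second, 1418678_at, read 248.9, 226.6, 249.4 and 302.9 against 248.0, 266.0, 255.4 and 245.1. The lowest array was R26Pax3/Pax3 replicate 4 on the first and replicate 3 on the second, so the probe sets did not single out the same array. Means were 341 ± 30.2 against 347 ± 27.4 on 1449169_at and 257 ± 32.4 against 254 ± 9.32 on 1418678_at (SD, n = 4 each). The log2 fold changes were -0.03 (SE 0.0954) and 0.01 (SE 0.100). In fold terms the 95% intervals ran from 0.849 to 1.13 and from 0.866 to 1.17. The mean over both probe sets differed by -0.01 on the log2 scale (exact permutation p = 0.914, two-sided, n = 4 each).

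The other synthases were dim. Has3, which makes shorter chains than its relatives, read 51.3, 71.4, 56.1 and 40.4 in R26Pax3/Pax3 against 45.0, 57.0, 48.0 and 38.2 in wild type. In each genotype 3 arrays lay above and 1 below the median of their array, and the ranges overlapped. The log2 fold change was 0.16 (95% interval -0.20 to 0.51), and it was 0.05 without R26Pax3/Pax3 replicate 3. Has1, the synthase with the weakest activity in cultured cells, read 30.9, 37.3, 14.2 and 28.1 against 41.1, 10.3, 49.7 and 28.3. All 4 R26Pax3/Pax3 values and 3 of the 4 wild type values were below the array medians, and no detection calls were used to tell them from background. Its log2 fold change was -0.10 (95% interval -0.70 to 0.51), and no fold is drawn from it.

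Breakdown was represented by Hyal2, a hyaluronidase anchored at the cell surface that cuts long chains into fragments. It read 277.7, 270.8, 232.2 and 191.2 in R26Pax3/Pax3 against 281.5, 249.8, 193.0 and 264.3 in wild type. The 2 lowest arrays, R26Pax3/Pax3 replicate 7 and wild type replicate 8, were of different genotype and had nearly the same signal. Means were 243 ± 39.9 against 247 ± 38.4 (SD, n = 4 each), with a log2 fold change of -0.02 and a 95% interval of 0.796 to 1.21 in fold terms. Its neighbour Hyal1 acts inside lysosomes on the fragments that Hyal2 leaves.

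Cd44, the main hyaluronan receptor of cell surfaces, was read by 3 probe sets that passed the filter. The brightest, 1423760_at, gave 522.9, 506.1, 584.3 and 686.6 in R26Pax3/Pax3 against 602.5, 504.1, 674.6 and 670.9 in wild type. On 1434376_at the signals were 405.7, 514.0, 548.2 and 512.6 against 584.5, 358.6, 619.8 and 628.9. Wild type replicate 6 was the lowest wild type array on both, and also on 1452483_a_at, where it read 118.5 and the other wild type arrays 139.6 to 173.2. The log2 fold changes were -0.09, -0.12 and -0.07, with SEs of 0.118, 0.164 and 0.137. Over the 3 probe sets the R26Pax3/Pax3 mean was 8.49 ± 0.161 and the wild type mean 8.59 ± 0.252 on the log2 scale (SD, n = 4 each), a difference of -0.09 (exact permutation p = 0.543, two-sided). Leaving out single arrays moved that difference between -0.22, without wild type replicate 6, and -0.03, without R26Pax3/Pax3 replicate 1. Without wild type replicate 6, an array singled out after its values were seen, the unadjusted exact permutation p was 0.0571. The summed cartilage markers were highest on wild type replicate 6, at 2168 against 871 to 1174 on the other wild type arrays. In R26Pax3/Pax3 they were 570 to 1561, with replicate 3 highest. Its summed epithelial markers were the lowest of the 8 arrays, at 3439 against 3805 to 5365. Over all arrays these epithelial sums were 3886 to 5365 in R26Pax3/Pax3 and 3439 to 4310 in wild type, and all 7 epithelial markers were above the array median throughout. Summed neuron markers were likewise highest on wild type replicate 6, at 1024.5 against 154.4 to 535.5 on the other wild type arrays. The neuron sums in R26Pax3/Pax3 were 433.5 to 941.1. Wild type replicates 2 and 11 had the lowest neuron sums of all arrays, at 154.4 and 160.0. Of the neuron markers Tubb3, Elavl4 and Snap25 were not above the median on every array. Summed muscle markers on wild type replicate 6, at 1449, were the lowest of the wild type arrays. The muscle sums in R26Pax3/Pax3 were 457 to 3345. The part of these cell types in the Cd44 values was not tested. The fourth probe set, 1443265_at, did not pass the filter and read at most 7.4 on any array.

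Vcan encodes versican, a large proteoglycan whose amino-terminal end grips hyaluronan and whose side chains add further charge and water to the matrix. It had 8 probe sets, of which 5 passed the filter, and 3 of these were far above the array medians. The brightest, 1427256_at, read 2411.5, 2712.5, 2287.1 and 2244.2 in R26Pax3/Pax3 against 2543.4, 2620.3, 2854.2 and 2141.8 in wild type. Both the highest and the lowest array were wild type, and the log2 fold change was -0.07 with a 95% interval of 0.826 to 1.10 in fold terms. On 1421694_a_at the signals were 1788.0, 1712.8, 1508.1 and 1386.5 against 1406.0, 1503.0, 1590.1 and 1455.2, with a log2 fold change of 0.10 (SE 0.0887). On 1427257_at they were 963.0, 1007.6, 717.9 and 734.9 against 619.5, 966.7, 822.7 and 595.2, with a log2 fold change of 0.20 (SE 0.161). The 2 probe sets 1427256_at and 1427257_at were designed on the same source sequence, yet their differences had opposite signs, and neither passed the test.

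The largest difference among the members was on a dim Vcan probe set, 1433043_at. It read 63.2, 58.4, 88.0 and 110.9 in R26Pax3/Pax3 against 85.5, 65.2, 31.3 and 38.8 in wild type. The genotypes overlapped, and 2 wild type arrays lay below the median of their array. The means were 80.1 ± 24.3 against 55.2 ± 24.9 (SD, n = 4 each), and the log2 difference was 0.47 (SE 0.246). Leaving out wild type replicate 8 gave 0.29 and leaving out wild type replicate 2 gave 0.66. It did not pass the test (limma adjusted p = 0.9997). Its interval, 0.952 to 2.00 in fold terms, was the only one of the 14 that reached a 2-fold change on the scale log2(signal + 16). Its partner from the same source sequence, 1433044_at, averaged 71.1 ± 21.0 against 70.5 ± 4.68 and differed by -0.02 on the log2 scale. Over the 5 probe sets the R26Pax3/Pax3 mean of Vcan was 8.92 ± 0.102 and the wild type mean 8.79 ± 0.148 on the log2 scale, a difference of 0.13 (exact permutation p = 0.200, two-sided, n = 4 each). The Vcan value weighs its 5 probe sets equally, so it leans on the dim 1433043_at with its difference of 0.47. The other Vcan probe sets differed by -0.07, 0.10, 0.20 and -0.02. Because 1433043_at ran against them from array to array (correlations of -0.752 to -0.283), scatter partly cancelled in the average. A Vcan average without 1433043_at was not tested. The 3 exact tests of Has2, Cd44 and Vcan had adjusted p-values of 0.914, 0.814 and 0.600, and the smallest p that 4 against 4 arrays allow is 0.0286. The remaining Vcan probe sets, 1447887_x_at, 1459767_x_at and 1447586_at, did not pass the filter and read at most 16.3 on any array.

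Tnfaip6 encodes TSG-6, a secreted protein that binds hyaluronan and transfers protein chains onto it, which cross-links the matrix. It read 147.8, 176.2, 213.6 and 318.2 in R26Pax3/Pax3 against 137.5, 149.3, 218.0 and 206.4 in wild type. The high mean of R26Pax3/Pax3 rested on replicate 7, and the other 3 arrays lay within the wild type range. The means were 214 ± 74.5 against 178 ± 40.3 (SD, n = 4 each), with a log2 fold change of 0.22 (SE 0.209) that became 0.02 without R26Pax3/Pax3 replicate 7. That array also had the lowest summed skeletal muscle markers, 457 against 1449 to 3740 on the other 7 arrays. The muscle sums ran from 457 to 3345 in R26Pax3/Pax3 and from 1449 to 3740 in wild type, with Myog and Actn2 not above the median on every array. R26Pax3/Pax3 replicate 7 also had the lowest cartilage sum, 570.1 against 719.7 to 2167.7 on the other 7 arrays. Its endothelial sum was the lowest too, at 522.5 against 533.7 to 681.9. The part of these cell types in the Tnfaip6 signal of that array was not tested.

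**Figure D2:**
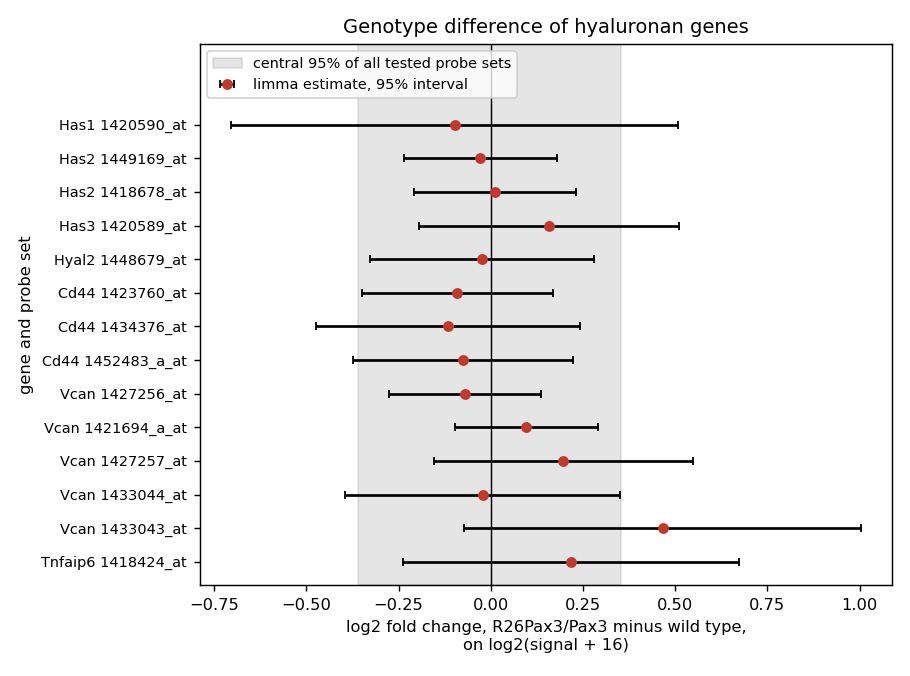
Log2 fold change of the 14 tested hyaluronan probe sets, R26Pax3/Pax3 minus wild type on log2(signal + 16), with limma's 95% intervals. Grey marks the central 95% of all 27021 tested probe sets, -0.36 to 0.35. All intervals include 0, and the point for Vcan 1433043_at, at 0.47, is the only one outside the grey band.

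The precision differed among members. On the scale log2(signal + 16), 13 of the 14 intervals lay within a 2-fold change in either direction and 11 within 1.5-fold. That scale understates the change of dim probe sets, so the intervals of dim ones such as Has1 do not bound the fold change of the signal itself. The spread between arrays of the same genotype, as the residual SD on the log2 scale, went from 0.118 for Has2 1449169_at to 0.481 for Has1, and the median over all tested probe sets was 0.186. A p that misses the threshold does not show that levels were equal, and the intervals give the sizes that these arrays leave possible on that scale.

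Probe sets of the same gene differed in how far they moved together. After the genotype means were subtracted, the 3 Cd44 probe sets correlated over the 8 arrays at 0.732 to 0.772. The 3 bright Vcan probe sets correlated at 0.586 to 0.749, while 1433043_at ran against the other 4, at -0.752 to -0.283. The 2 Has2 probe sets correlated at 0.106, beside a spread between arrays that was the smallest among the members. These correlations describe arrays that share 1 scaling method, and they carry no test.

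**Figure D3:**
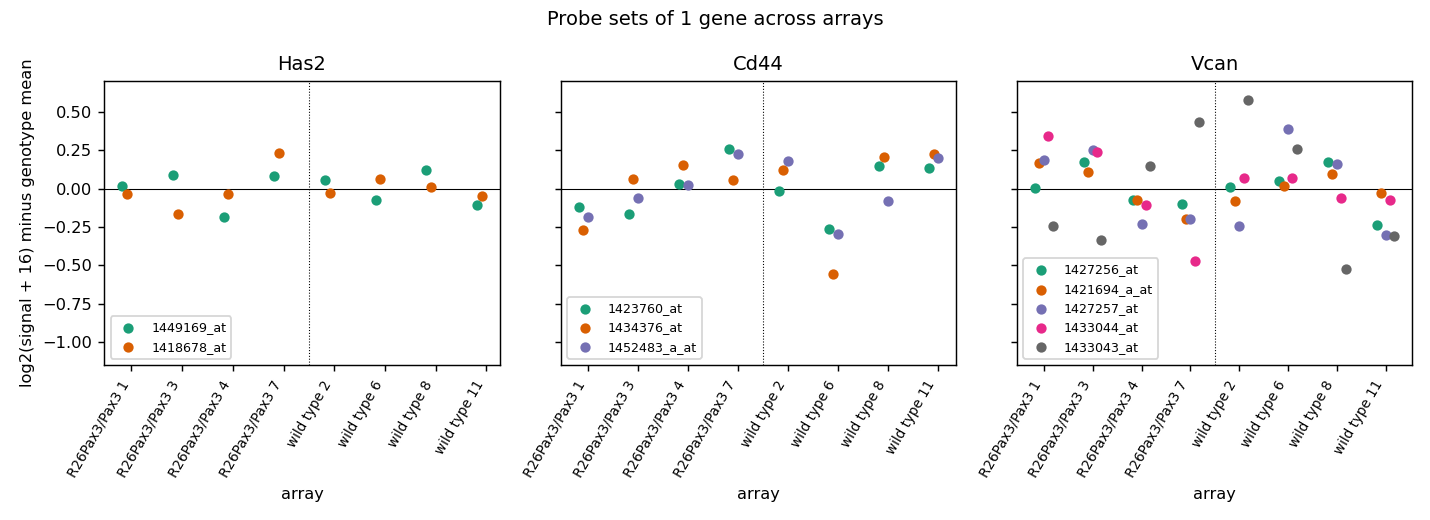
Deviation of log2(signal + 16) from the genotype mean on each array for the tested probe sets of Has2, Cd44 and Vcan, R26Pax3/Pax3 arrays left of the dotted line and wild type arrays right of it. The Cd44 probe sets are low together in wild type replicate 6, and Vcan 1433043_at (dark grey) runs against the other Vcan probe sets.

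The order in which arrays were deposited went with signals across the whole array. The first principal component of all tested probe sets, with 21.8% of the variance, lay at -27.1 to -6.95 on the first 4 arrays and at 3.34 to 28.2 on the last 4. Among the hyaluronan genes, Vcan 1427257_at read 823 to 1008 on the first 4 arrays, 2 of each genotype, and 595 to 735 on the last 4. On Cd44 1452483_a_at the order was reversed, with 119 to 140 on the first 4 and 143 to 173 on the last 4. These were the 2 of 14 hyaluronan probe sets whose first and last arrays did not overlap, or 14.3% against 5.14% of all tested probe sets, and the labels do not say what the deposition order reflects. Within the first and the last 4 arrays the genotype differences were 0.14 and 0.25 for Vcan 1427257_at and -0.01 and -0.14 for Cd44 1452483_a_at. They had opposite signs in the 2 sets for Tnfaip6 (-0.15 and 0.58), Hyal2 (0.30 and -0.35), Has1 (0.27 and -0.46), Has2 1418678_at (-0.13 and 0.15), Has2 1449169_at (0.00 and -0.06) and Vcan 1433044_at (0.26 and -0.31). For Vcan 1433043_at they were 0.31 and 0.62, and for Has3 0.17 and 0.15.

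Between genes, the brightest probe sets of the 7 members gave 21 pairs, whose correlations after subtracting genotype means lay between -0.849 and 0.859 over the 8 arrays. The highest was that of Cd44 with Tnfaip6, and the lowest was that of Hyal2 with Tnfaip6. Has1 with Has2 came to 0.807 although most Has1 signals were below the array medians, and Has3 with Cd44 came to -0.809. For Has2 the probe set was 1449169_at, and its correlation with the other Has2 probe set was only 0.106. The probe sets most like Has2 1449169_at were those of Ubxn2b (0.989), Tgfbrap1 (0.987) and Oaz2 (0.978). For Vcan they were Plcb1 (0.995), Zbtb24 (0.976) and Nras (0.972), and for Cd44 they were Rp2 (0.974), Spred2 (0.969) and Retsat (0.968). A typical probe set had a best partner at 0.985, so these partners are described and nothing is read from them.

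The rest of the hyaluronan pathway was followed through 51 further symbols in 5 lists, some of them older names of another listed gene. Of these, 48 had probe sets annotated with that symbol alone, 102 in all, and 69 probe sets of 32 genes passed the filter. None of the 69 was called (limma), against 0.0148% of all probe sets, and 7 had an unadjusted p under 0.05, which is 10.1% against 4.86%. The genotypes did not overlap on 3 of the 69, or 4.35% against 2.73%. On balance 52 were lower and 17 higher in R26Pax3/Pax3, with a median log2 fold change of -0.08. Of all tested probe sets 50.3% were higher, and their median was 0.00. The 69 probe sets read only 32 genes on the same arrays and are not independent, so these counts carry no test. Leaving out single arrays gave 46 to 51 lower of 68 or 69. Osteoblast markers were also lower on average, with sums of 6230 to 7545 in R26Pax3/Pax3 and 7131 to 9282 in wild type, and all 4 of those on the array were above the array median on every array. Among them Ifitm5 had a log2 difference of -0.55 (limma adjusted p = 0.573). All its R26Pax3/Pax3 arrays were below wild type, as on 1.34% of all probe sets. The 3 probe sets of Dmp1 had -0.78 to -0.64 (limma adjusted p = 0.907 to 0.9997). Sp7 had -0.27, and Ibsp, which made up most of the sum, had -0.09 and -0.15. None of these osteoblast markers was called. The mean sums of cartilage (893 against 1281) and muscle markers (2042 against 2768) were lower in R26Pax3/Pax3 too. Those of epithelial (4732 against 3913), neuron (739 against 469) and erythroid markers (6600 against 5542) were higher. Palate mesenchyme, endothelial and leukocyte sums were slightly higher. The part of any of these cell types in the pathway values was not tested.

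No gene that makes the sugar precursors of hyaluronan passed the test. Of 17 tested probe sets 6 were higher and 11 lower, with a median of -0.02. Gfpt1, the rate-limiting enzyme of the hexosamine pathway, averaged 789 ± 47.9 on the R26Pax3/Pax3 arrays and 897 ± 84.1 on the wild type arrays for its brightest probe set (SD, n = 4 each). The log2 difference of -0.18 was not called (limma adjusted p = 0.9997). The difference was -0.35 within the first 4 arrays and 0.00 within the last 4. A dimmer probe set of Gfpt1, 1449268_at, had the largest difference of this list, -0.36 (70.1 ± 9.76 against 96.0 ± 22.4), and was the 1 of the 17 with an unadjusted p under 0.05. Ugdh, which makes UDP-glucuronic acid, had -0.09, Uap1, which makes UDP-N-acetylglucosamine, had -0.10, and Gfpt2 had 0.10.

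The other breakdown genes gave 7 tested probe sets of 4 genes, all with negative values between -0.18 and -0.01 and none past the test. Gusb and Hexa, lysosomal enzymes that remove single sugars from the fragments, had log2 fold changes of -0.15 and -0.14. Cemip and Cemip2, proteins linked to hyaluronan degradation, had -0.13 and -0.01, and Cemip averaged 42.3 ± 13.0 in R26Pax3/Pax3 and 51.0 ± 26.9 in wild type, near the array medians. Hyal3, Hyal4, Hyal5, Hyal6 and Spam1 did not pass the filter.

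Further receptors and binding proteins gave 23 tested probe sets, 6 higher and 17 lower, with a median of -0.09. Ptx3, a pentraxin that joins TSG-6 in cross-linking hyaluronan in the mouse ovarian follicle, read 273.3, 261.7, 238.3 and 197.5 in R26Pax3/Pax3 against 344.2, 285.7, 295.1 and 310.8 in wild type. All 4 R26Pax3/Pax3 arrays lay below the wild type arrays, as on 1.34% of all probe sets. The log2 difference of -0.34 (SE 0.112) was nevertheless not called (limma adjusted p = 0.907). It was -0.11 among the first 4 arrays deposited and -0.56 among the last 4.

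Hapln1, the link protein that locks versican and aggrecan onto hyaluronan and whose gene neighbours Vcan, read 67.1, 108.7, 75.3 and 79.6 in R26Pax3/Pax3 against 82.0, 198.2, 80.9 and 77.9 in wild type on its brightest probe set. Wild type replicate 6 stood furthest apart, and the log2 fold change of -0.27 became 0.02 without it. R26Pax3/Pax3 replicate 3 was the highest of its genotype, and leaving that array out gave -0.39. On the dimmer probe set 1426294_at the R26Pax3/Pax3 arrays, 43.0 to 56.3, were all below the wild type arrays, 56.9 to 89.7, with a log2 difference of -0.47 (limma adjusted p = 0.889). That probe set was singled out after its values were seen. Acan, the aggrecan of cartilage, read 34.7, 69.1, 61.6 and 36.5 against 55.7, 165.8, 51.9 and 63.7, again highest in wild type replicate 6. Its log2 difference of -0.50 was -0.17 without that array. The cartilage markers, which include Acan, summed to 570 to 1561 in R26Pax3/Pax3 and 871 to 2168 in wild type, and 3 of the 5 were above the array median on all arrays, the exceptions being Acan and Matn1. Their part in the Hapln1 values was not tested. Hapln3 was dim, at 40.5 ± 7.90 against 29.9 ± 12.3.

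Proteases that cleave versican gave 11 tested probe sets, 2 higher and 9 lower, with a median of -0.16. Adamts5 read 107.6, 134.4, 129.7 and 80.4 in R26Pax3/Pax3 against 124.4, 166.2, 146.5 and 142.6 in wild type on its brightest probe set. The ranges overlapped through wild type replicate 2, and the log2 difference of -0.33 (SE 0.149) was not called (limma adjusted p = 0.9997). It came to -0.34 among the first 4 arrays deposited and to -0.33 among the last 4. Its second probe set also had -0.33, and the third had -0.16. Adamts20 had -0.23, Adamts9 had -0.10 and Adamts4 had -0.06. The cytoskeletal partners of Cd44 gave 11 probe sets, 3 higher and 8 lower. Ezr and Msn, which tie the tail of Cd44 to actin, had -0.04 and 0.01, and Rdx had -0.15. Nf2, which encodes merlin, had 0.09 (476 ± 16.3 against 448 ± 14.7, limma unadjusted p = 0.274). All 4 R26Pax3/Pax3 arrays were above wild type on that Nf2 probe set. The genotypes did not overlap, in either direction, on 2.73% of all probe sets. Other probe sets of Nf2 had negative values, down to -0.41.

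**Figure D4:**
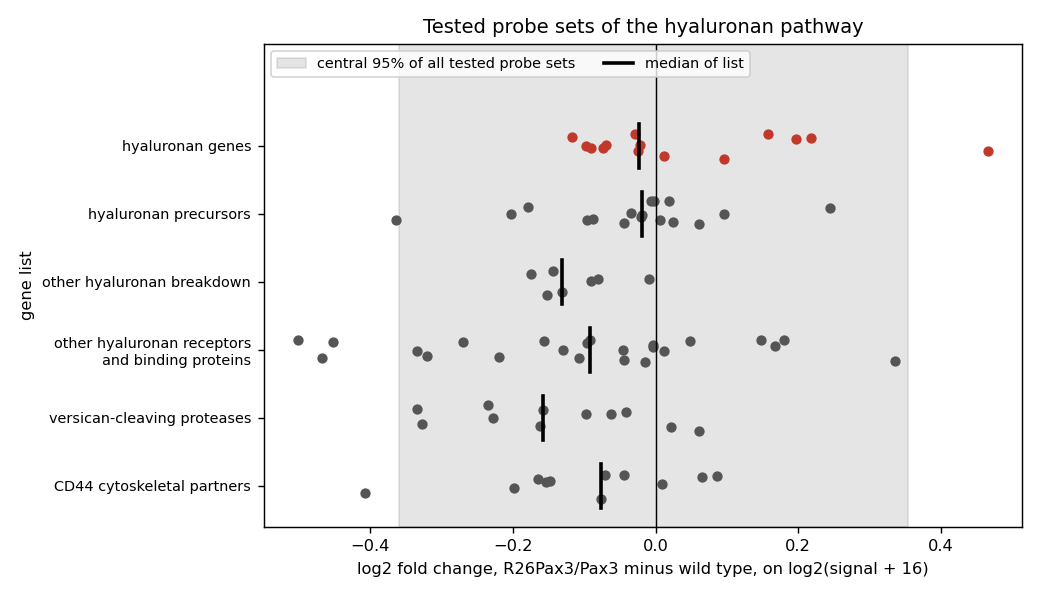
Log2 fold change of each tested probe set, R26Pax3/Pax3 minus wild type on log2(signal + 16), for the hyaluronan genes (red) and 5 lists of related genes (dark grey), with the median of each list as a black bar. List medians lie between -0.16 and -0.02, and grey marks the central 95% of all tested probe sets.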

How the data were processed

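Per the labels' protocols, Trizol was used to isolate total RNA, of which 6 µg went into biotinylated cRNA. The deposited values are linear intensities, 1 for each probe set and array. The submitters' processing notes name MAS5 without a version. MAS5 scales each array to a common target, so a shift common to all genes could not be seen. Detection calls were not used here. The number of arrays limits the precision.

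Control probe sets (64) were left out. Signals were transformed to log2(signal + 16), and probe sets above the 40th percentile of mean signal were tested with limma 3.58.1 in R 4.3.3 (eBayes with intensity trend, no covariates, Benjamini-Hochberg over all tested probe sets). Symbols came from the annotation of the array, gene neighbours from RefSeq of GRCm38.p6. Members and lists were chosen with earlier results of these data known. Named were all members, up to 4 genes per pathway list by smallest p of the brightest probe set, and 3 genes most like Has2, Vcan and Cd44. Alternatives were pseudocounts of 1 and 64, no filter or the 60th percentile, quantile normalization, deposition order as a block, no trend, and leaving out each array.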

Additional observations from a re-analysis of the deposited data

Results flagged for a closer look

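Within a genotype, 1 array stood apart from the other 3 in 5 of 68 groups of 4 arrays examined, where chance gives about 5% of groups. The gap to the nearest array, as a share of the whole range of the group on the log2 scale, was 0.869 for Cd44 1434376_at and 0.861 for Msn, both lowest in wild type replicate 6. It was 0.948 for Hapln1 1438020_at and 0.837 for Acan, both highest in wild type replicate 6. For Gfpt2 it was 0.838, with R26Pax3/Pax3 replicate 7 highest. Wild type replicate 6 thus accounted for 4 of the 5.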

How the results depend on the processing

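No paired analysis was possible because the genotypes share no replicate numbers. Under all 15 alternatives, 0 hyaluronan and 0 pathway probe sets were called, and the lowest adjusted p of any hyaluronan probe set was 0.818 (Cd44 1434376_at without wild type replicate 6, limma). The count over all probe sets went from 4 to 9 when single arrays were left out, with 9 without R26Pax3/Pax3 replicate 3. Changes of scaling, filter, pseudocount, trend or block turned no direction of a named probe set, but leaving out single arrays did for 13 of them, with values between -0.27 (Hapln1) and 0.10 (Gfpt2) on all arrays. The log2 fold change then ranged from -0.063 to 0.033 for Has2 1449169_at, -0.066 to 0.065 for Has2 1418678_at, -0.36 to 0.076 for Has1, -0.13 to 0.079 for Hyal2 and -0.14 to 0.14 for Vcan 1433044_at, and from -0.061 to 0.028 for the mean of both Has2 probe sets. It ranged from -0.11 to 0.018 for Adamts4, -0.40 to 0.099 for Cemip, -0.12 to 0.060 for Cemip2, -0.13 to 0.025 for Ezr, -0.020 to 0.19 for Gfpt2, -0.39 to 0.019 for Hapln1, -0.093 to 0.050 for Msn and -0.15 to 0.014 for Uap1. The cause was not tested. For Vcan 1433043_at the value was 0.59 with a pseudocount of 1 and 0.28 with 64. With the 60th percentile as the filter, 10 hyaluronan probe sets were tested. Dim signals, those of Has1 above all, limit what can be said.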
